A study of Homo sapiens with 17 samples.

Results

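HLA class I antigen presentation was followed through 9 genes in cultured human lung fibroblasts that entered senescence after activation of oncogenic RAS, with and without depletion of SMARCA4. The genes were taken by symbol and comprise the heavy chains HLA-B, HLA-C, HLA-E and HLA-F, the light chain gene B2M, the peptide loading genes TAP1, TAP2 and TAPBP, and the transactivator NLRC5. They are 9 of the 62754 gene rows in the tables, and all 9 were among the 19473 genes that passed the filter on low counts. The cells, IMR90 ER:RAS, were made with a retroviral vector for activated RAS fused to the hormone-binding domain of the oestrogen receptor. In every group that received 4-hydroxytamoxifen (4OHT) the oncogene was switched on, whereas DMSO is the vehicle. Cells were reverse transfected either with siRNA that has no target (siNT) or with siRNA to SMARCA4 (siSMARCA4) on the day before 4OHT or DMSO, and RNA was taken 7 days after induction. The 17 poly(A) RNA libraries comprise 5 of DMSO siNT, 6 of 4OHT siNT and 6 of 4OHT siSMARCA4. DMSO with siSMARCA4 was not analysed here, so the knockdown could be compared within 4OHT alone.

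Class I molecules display peptides from inside the cell to CD8 T cells. The proteasome cuts proteins into peptides, the TAP1 and TAP2 transporter carries these into the endoplasmic reticulum, and tapasin (TAPBP) holds the empty heavy chain and B2M beside the transporter until a peptide is bound. Natural killer cells read the same molecules through inhibitory receptors: HLA-C and some HLA-B molecules bind killer immunoglobulin-like receptors, and HLA-E, which presents leader peptides of other class I heavy chains, binds CD94 with NKG2A. NLRC5 works with an assembly of RFX, CREB/ATF and NF-Y factors on a conserved promoter module, and interferons and NF-kB raise many of these genes through separate elements.

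Promoter sequences are shown so that the letters in front of the genes that rose in senescence can be set beside those of the genes that did not. RefSeq promoter windows on GRCh38.p14, from 250 bases before to 50 bases after the start of a transcript, were found for 7 of the 9 genes. HLA-E and NLRC5 had none. Capitals mark matches on either strand to GAAANNGAA (a core of interferon-stimulated response elements), GGGNNTTCC (a kappaB-like core), TGACG (the core of a cyclic AMP response element) and ATTGG (the CCAAT box read on the other strand), where N is any base and overlapping matches run together. Each stretch reads 5′ to 3′ on the gene's own strand, covers the matches upstream of the RefSeq start and ends before it.
HLA-B, chr6:31357226-31357361, minus strand: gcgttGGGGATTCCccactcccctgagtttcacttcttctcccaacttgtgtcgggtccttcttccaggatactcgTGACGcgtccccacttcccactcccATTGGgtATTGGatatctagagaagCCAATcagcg
HLA-C, chr6:31272139-31272289, minus strand: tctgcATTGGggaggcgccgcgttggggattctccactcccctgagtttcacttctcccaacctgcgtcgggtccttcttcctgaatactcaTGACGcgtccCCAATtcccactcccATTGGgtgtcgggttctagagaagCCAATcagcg
HLA-F, chr6:29723274-29723386, plus strand: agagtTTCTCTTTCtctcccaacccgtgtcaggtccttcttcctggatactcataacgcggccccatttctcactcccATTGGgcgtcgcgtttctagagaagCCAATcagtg
B2M, chr15:44711368-44711477, plus strand: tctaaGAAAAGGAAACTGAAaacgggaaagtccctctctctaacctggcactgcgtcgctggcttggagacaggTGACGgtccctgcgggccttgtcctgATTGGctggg
TAP1, chr6:32853818-32853954, minus strand: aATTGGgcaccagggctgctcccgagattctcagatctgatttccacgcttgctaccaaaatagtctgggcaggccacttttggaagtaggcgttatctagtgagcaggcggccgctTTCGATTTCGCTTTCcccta
TAP2, chr6:32838765-32838802, minus strand: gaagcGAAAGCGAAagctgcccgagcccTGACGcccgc
TAPBP, chr6:33314079-33314138, minus strand: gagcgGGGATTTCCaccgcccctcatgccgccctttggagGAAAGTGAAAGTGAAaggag

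GAAANNGAA was present in the windows of TAP1, TAP2, TAPBP, B2M and HLA-F, 5 of 7 genes, against 8.11% of all 35116 windows of the same length. TGACG and ATTGG occurred together in HLA-B, HLA-C and B2M, 3 of 7 genes, against 8.69% of all windows, and taken singly they were found in 24.6% and 34.6% of windows. GGGNNTTCC was found in HLA-B, TAPBP and, across its start site and so outside the stretch printed, B2M, and in 6.58% of all windows. GAAANGAAA and TGANTCA matched none of the 7 genes and 3.12% and 7.71% of all windows, and TTCNNNGAA matched only a second, downstream window of TAP1, against 7.66% of all windows. B2M was the only gene of the 7 to hold GAAANNGAA, TGACG and ATTGG together. A gene was counted if any of its windows matched, and TAP1 had 2 windows, whereas the shares are per window. Only exact matches were counted. HLA-B and HLA-C, with no match to GAAANNGAA, may therefore still hold a close variant of it. These matches describe the letters in a short window and were not tested as binding sites.

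Library totals ranged from 39109479 to 68978119, and levels are given as CPM, the count scaled to a library of 1000000, after TMM scaling with factors from 0.949 to 1.08. SMARCA4, the targeted ATPase of the SWI/SNF chromatin remodeller, had 268 ± 13.2 CPM (SD, n = 6) in 4OHT siNT and 88.1 ± 22.8 CPM (n = 6) in 4OHT siSMARCA4. The highest siSMARCA4 library, at 127 CPM, lay below the lowest siNT library, at 253 CPM. In bulk RNA, fewer cells of one kind cannot be told apart from less RNA in each cell. Of 9 fibroblast markers, none was at 0 in any group, and their summed level ran from 28911 to 35027 CPM in DMSO siNT, from 17848 to 27790 CPM in 4OHT siNT and from 9393 to 16555 CPM in 4OHT siSMARCA4. In the tests described below, 7 of the 9 were lower in 4OHT siNT than in DMSO siNT, against 27.4% of all tested genes. After knockdown 8 were lower, against 13.8%. VIM passed neither test, with means of 5985, 5967 and 5720 CPM in the 3 groups in that order. The fall of the sum moved with the groups compared here, and its part in the results was not tested. The 8 leukocyte markers summed to between 0.506 and 1.23 CPM in all libraries, with PTPRC at no more than 0.131 CPM. The 4 endothelial markers summed to at most 1.94, 6.25 and 4.77 CPM in the 3 groups in that order, and the 5 epithelial markers to at most 9.63, 3.09 and 2.40 CPM.

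The labels carry a number, 2 or 4, after the name of the siRNA, and a tag, V or VM, and they explain neither. They do not say that siNT and siSMARCA4 libraries with the same number belong together. All 6 of the 4OHT siNT libraries are VM, whereas 3 of the 6 4OHT siSMARCA4 libraries and 2 of the 5 DMSO siNT libraries are V. The comparisons of the 9 genes were therefore also made within VM and within each number, and values that change a call of one of them are given with the comparison they belong to. For other genes, only the knockdown difference was also fitted per number. Nothing in the labels says that the libraries came from separate cultures, so each p-value measures the spread between these libraries.

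B2M was the most abundant of the 9 transcripts per length and NLRC5 the least. In CPM per kilobase of annotated exon, B2M stood at 238 ± 34.1 in DMSO siNT (n = 5), 195 ± 25.7 in 4OHT siNT (n = 6) and 250.4 ± 20.9 in 4OHT siSMARCA4 (n = 6). HLA-C (87.3 ± 6.01), HLA-B (65.2 ± 6.16) and HLA-E (60.4 ± 7.19) followed in 4OHT siNT, and the ranges of HLA-B and HLA-E overlapped there. TAPBP (27.3 ± 3.59), TAP1 (18.1 ± 0.865) and TAP2 (4.22 ± 0.405) came next, with HLA-F (1.22 ± 0.439) and NLRC5 (1.21 ± 0.105) last and not separated beyond their spread. With the length of the MANE Select transcript in place of all annotated exons, a choice made after the data were seen, HLA-B (196 ± 18.5) passed above HLA-C (142 ± 9.78), so the order of those genes depends on the length used. The class I genes are polymorphic and near-identical in long stretches, and reads that fit several of them were shared among them by the authors' counting, so levels of single heavy chains carry that uncertainty.

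**Figure D1:**
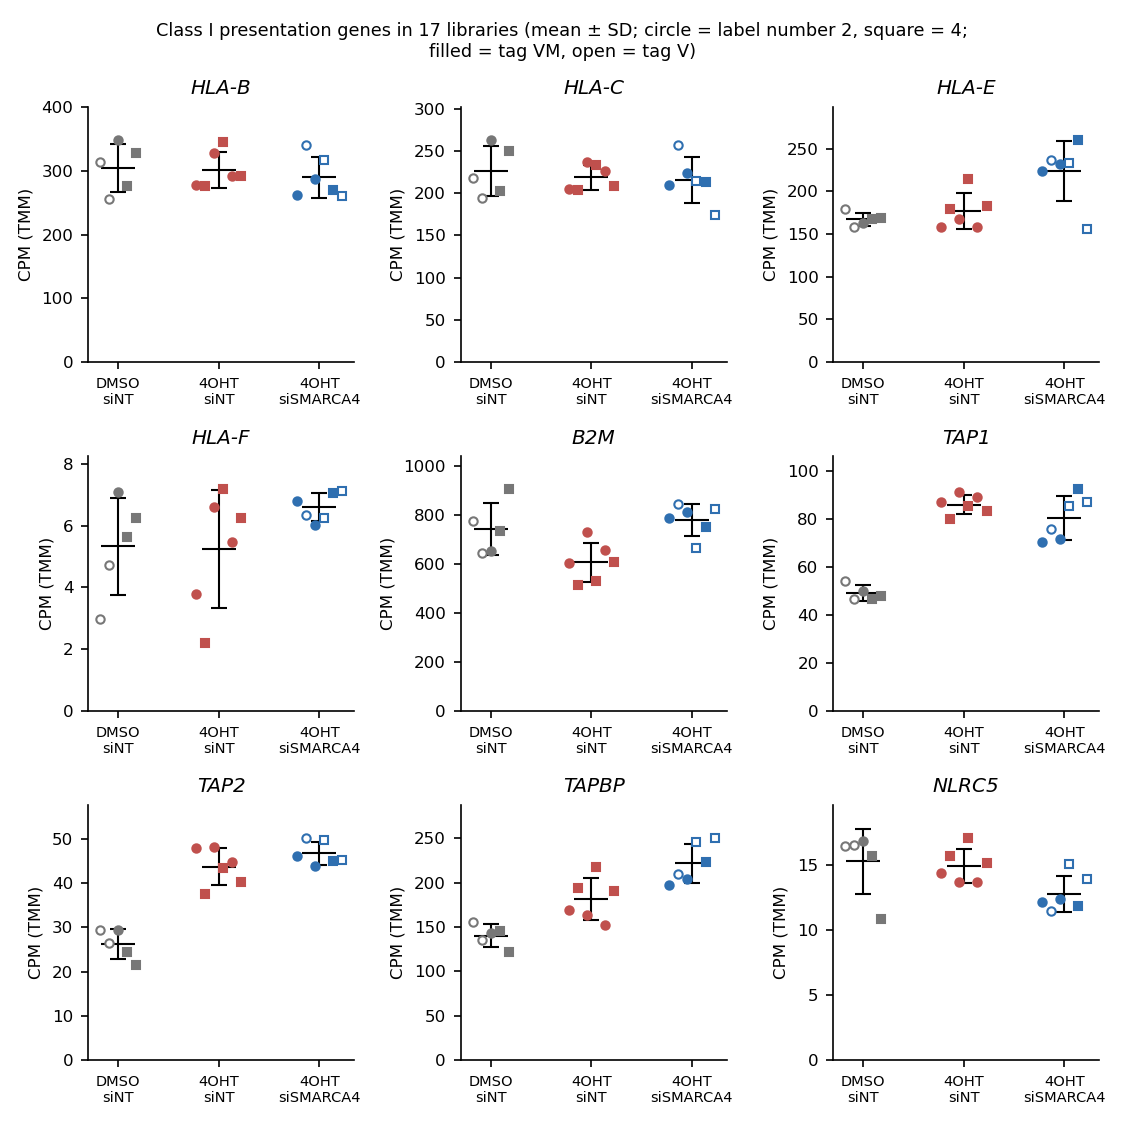
Level of each of the 9 genes in the 17 libraries, in TMM-scaled CPM from 0, by group; points are libraries (circles, label number 2; squares, label number 4; filled, tag VM; open, tag V) and bars are the mean ± SD. TAP1 and TAP2 in both 4OHT groups sit above every DMSO siNT library, HLA-B and HLA-C overlap in all 3 groups, and 1 open square at 156 CPM lies below the other HLA-E values of 4OHT siSMARCA4.

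The first comparison, 4OHT against DMSO in siNT cells, asked how class I presentation differs once the oncogene has driven the cells into senescence. The transporter and its bridge to the heavy chain rose, B2M fell, and the heavy chains and NLRC5 did not pass the test. Of the 9 genes, 3 were called higher and 1 lower (edgeR quasi-likelihood test, Benjamini-Hochberg adjusted over 19473 genes, threshold 0.05). Of all tested genes 54.4% were called, 27.0% higher and 27.4% lower, so that the 4 calls in 9 (44.4%) were no larger a share than in genes at large. The median log2 fold change of the 9 genes was -0.013, against 0.0039 over all tested genes.

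TAP1, which pairs with TAP2 to form the peptide transporter, had 54.3, 46.8, 50.1, 46.5 and 47.9 CPM in the 5 DMSO siNT libraries. In the 4OHT siNT libraries it ran from 79.8 to 91.3 CPM with a median of 86.3 CPM. The groups did not overlap, and the difference was 1.75-fold (log2 fold change 0.81, SE 0.08, adjusted p = 5.2e-08 in edgeR). TAP2 had 29.4, 26.6, 29.5, 24.5 and 21.5 CPM in DMSO siNT, against 37.6 to 48.1 CPM with a median of 44.2 CPM in 4OHT siNT. Its groups were also apart, and the difference was 1.66-fold (log2 fold change 0.73, SE 0.09, adjusted p = 1.0e-06 in edgeR). These 2 of the 9 genes had libraries that did not overlap, as had 39.6% of all tested genes. Both calls held within label number 2, within number 4 and within VM, with log2 fold changes of 0.79, 0.77 and 0.81 for TAP1 and 0.69, 0.77 and 0.77 for TAP2.

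TAPBP, which encodes tapasin, had 155, 136, 144, 146 and 122 CPM in DMSO siNT. In 4OHT siNT it ran from 152 to 218 CPM with a median of 180 CPM, so that 1 library of the higher group lay below the top of the lower group. The difference was 1.29-fold (log2 fold change 0.37, SE 0.10, adjusted p = 0.0029 in edgeR). The rise was larger in the libraries with label number 4, at 201 ± 14.6 CPM (n = 3) against 134 ± 17.2 CPM (n = 2), than in those with number 2, at 162 ± 8.82 CPM (n = 3) against 145 ± 9.84 CPM (n = 3), although the difference between the numbers was not tested here. Within number 2 alone the log2 fold change was 0.13 with an adjusted p of 0.16 (edgeR), and within VM it was 0.38 with an adjusted p of 0.0088.

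B2M, the light chain shared by all class I heavy chains, went the other way. It had 775, 644, 654, 733 and 905 CPM in DMSO siNT and 513 to 730 CPM with a median of 607 CPM in 4OHT siNT. The groups overlapped, and the level in 4OHT siNT was 0.819 of that in DMSO siNT (log2 fold change -0.29, SE 0.10, adjusted p = 0.024 in edgeR). This call was lost without the DMSO siNT library 4-3VM, the highest of its group (log2 fold change -0.21, adjusted p = 0.084), and without either of the 4OHT siNT libraries 4-1VM (-0.24, adjusted p = 0.059) and 4-2VM (-0.25, adjusted p = 0.057). It was also lost within label number 2, where the value was -0.091 (adjusted p = 0.45), whereas within number 4 it was -0.62 (adjusted p = 0.0088).

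The heavy chains showed no call in either direction. HLA-B had 314, 256, 348, 276 and 327 CPM in DMSO siNT and 275 to 345 CPM with a median of 291 CPM in 4OHT siNT, with a log2 fold change of -0.013 and a 95% interval from -0.21 to 0.19. For HLA-C, at 226 ± 29.6 CPM (n = 5) and 219 ± 15.1 CPM (n = 6), the interval ran from -0.25 to 0.16. For HLA-E, at 167 ± 7.95 CPM and 177 ± 21.0 CPM, it ran from -0.15 to 0.30. HLA-F, a heavy chain of low abundance at 5.33 ± 1.57 CPM and 5.25 ± 1.90 CPM, varied too much between libraries to narrow its interval beyond -0.53 to 0.48. The 4 heavy chains summed to 702 ± 69.3 CPM in DMSO siNT and 702 ± 57.6 CPM in 4OHT siNT. NLRC5 had 16.5, 16.6, 16.8, 15.7 and 10.9 CPM in DMSO siNT and 13.7 to 17.1 CPM with a median of 14.8 CPM in 4OHT siNT. Its log2 fold change was -0.030 (SE 0.11), with an interval from -0.26 to 0.20, and it changed with the library set. Within number 2 it was -0.29 with an adjusted p of 0.0076 in edgeR, within number 4, which holds the low DMSO siNT library 4-3VM, 0.22 (adjusted p = 0.31), and within VM 0.025.

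**Figure D2:**
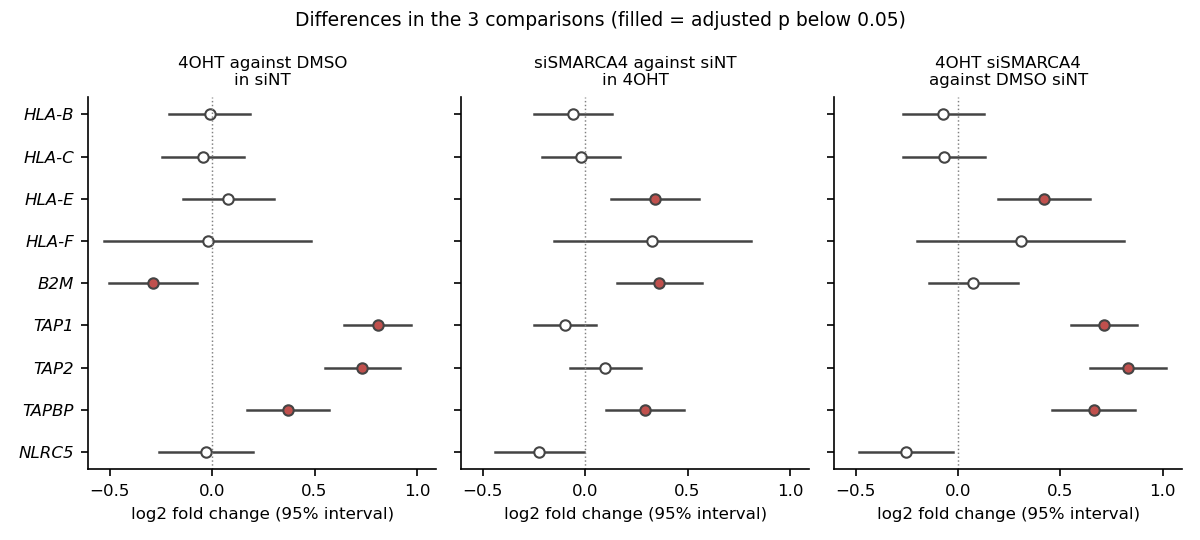
Log2 fold change of each gene with its 95% interval in the 3 comparisons; filled points have an edgeR adjusted p below 0.05. TAP1, TAP2 and TAPBP lie to the right in both comparisons with DMSO, B2M lies to the left in senescence and to the right after knockdown, and the intervals of HLA-B and HLA-C include 0 throughout.

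The second comparison, siSMARCA4 against siNT in 4OHT, asked what loss of the remodeller changes in senescent cells. B2M, HLA-E and TAPBP rose by 1.22- to 1.29-fold, and the other 6 genes did not pass the test. The 3 calls in 9 genes, 33.3%, all higher, compare with 24.2% of all tested genes called, 10.4% higher and 13.8% lower. No gene of the 9 had groups that did not overlap, against 12.0% of all tested genes. The median log2 fold change was 0.10 over the 9 genes and -0.02 over all tested genes.

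B2M ran from 513 to 730 CPM with a median of 607 CPM in 4OHT siNT and from 667 to 847 CPM with a median of 801 CPM in 4OHT siSMARCA4. The rise was 1.29-fold (log2 fold change 0.36, SE 0.10, adjusted p = 0.012 in edgeR). It was 0.38 within VM (adjusted p = 0.042), 0.34 within number 2 (adjusted p = 0.030) and 0.48 within number 4, where 3 libraries against 3 gave an adjusted p of 0.069. In a joint fit of all libraries with a separate term for each number, the calls were the other way round, with 0.30 for number 2 (adjusted p = 0.081) and 0.44 for number 4 (adjusted p = 0.017), so that which number passes depends on the fit. Leaving out each library in turn kept the call, with log2 fold changes from 0.32 to 0.42.

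HLA-E, the ligand of NKG2A, ran from 158 to 214 CPM with a median of 173 CPM in 4OHT siNT. In 4OHT siSMARCA4 it had 223, 237, 232, 233 and 260 CPM in 5 libraries and 156 CPM in the sixth, library 4-3V, which lay below all 6 siNT libraries. The difference over all libraries was 1.27-fold (log2 fold change 0.34, SE 0.10, adjusted p = 0.020 in edgeR). Without 4-3V it was 0.43 with an adjusted p of 0.00072, and within VM, where that library does not enter, 0.45 with an adjusted p of 0.0035. Within number 2 it was 0.56 (adjusted p = 0.00052). The call was lost within number 4 (0.21, adjusted p = 0.50), without the siSMARCA4 library 4-2VM (0.29, adjusted p = 0.054) and without the siNT library 2-1VM (0.31, adjusted p = 0.0502). Among the siNT libraries themselves HLA-E stood at 161 ± 5.15 CPM with number 2 and 192 ± 19.1 CPM with number 4 (n = 3 each).

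TAPBP ran from 152 to 218 CPM with a median of 180 CPM in 4OHT siNT and from 198 to 250.1 CPM with a median of 217 CPM in 4OHT siSMARCA4, a 1.22-fold difference (log2 fold change 0.29, SE 0.09, adjusted p = 0.025 in edgeR). Within VM the log2 fold change was 0.22 (adjusted p = 0.14), and with the tag as a covariate it was also 0.22 (adjusted p = 0.10). The call was lost, too, with the replicate label as a block. It was also lost within number 4 (0.29, adjusted p = 0.14), without the siNT libraries 2-1VM (0.27, adjusted p = 0.056) or 2-2VM (0.26, adjusted p = 0.055) and without the siSMARCA4 library 4-3V (0.26, adjusted p = 0.0503). Libraries with number 4 were higher than those with number 2 in both 4OHT groups, at 201 ± 14.6 against 162 ± 8.82 CPM in siNT and at 240.04 ± 14.3 against 204 ± 6.28 CPM in siSMARCA4 (n = 3 each).

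The transporter genes were not called after knockdown. TAP1 ran from 79.8 to 91.3 CPM in 4OHT siNT and from 70.3 to 92.4 CPM in 4OHT siSMARCA4, with a log2 fold change of -0.10 and a 95% interval from -0.25 to 0.06. The 3 siSMARCA4 libraries with number 2, at 70.3, 75.8 and 71.5 CPM, lay below all 6 siNT libraries, whereas the 3 with number 4, at 85.5, 92.4 and 86.9 CPM, lay among or above them. The knockdown difference was -0.30 (SE 0.07) with number 2 and 0.09 (SE 0.07) with number 4, and the difference between these was -0.39 (SE 0.10), with an unadjusted p of 0.0015 and an adjusted p of 0.076 in edgeR's test across all genes. That was the smallest p of the 9 genes in this test, which called 207 of 19473 genes and none of the 9. Fitted on the libraries with number 2 alone, TAP1 was called lower (-0.26, adjusted p = 0.023), and on those with number 4 alone it was 0.13 (adjusted p = 0.46). TAP2 had a log2 fold change of 0.10 (SE 0.08) and an interval from -0.08 to 0.27.

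HLA-B and HLA-C, the classical heavy chains, were not called. HLA-B ran from 275 to 345 CPM in 4OHT siNT and from 260.4 to 341 CPM in 4OHT siSMARCA4, with a log2 fold change of -0.06 and an interval from -0.25 to 0.13. HLA-C had a log2 fold change of -0.021 and an interval from -0.21 to 0.17, and its lowest library was 4-3V, as for HLA-E, at 174 CPM. HLA-F, at 6.60 ± 0.451 CPM after knockdown, had a log2 fold change of 0.33 with an interval from -0.15 to 0.81. The sum of the 4 heavy chains was 735 ± 81.3 CPM in 4OHT siSMARCA4, against 702 ± 57.6 CPM in 4OHT siNT.

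NLRC5 had 14.4, 15.7, 13.7, 17.1, 13.7 and 15.2 CPM in the 4OHT siNT libraries. After knockdown it had 12.1, 11.5, 12.4, 15.1, 11.9 and 13.9 CPM. The means differed by -0.22 on the log2 scale (SE 0.10, adjusted p = 0.13 in edgeR), and the groups overlapped through the 2 V libraries with number 4. With the tag as a covariate the difference was -0.31 with an adjusted p of 0.046, and without the DMSO siNT library 4-3VM, which enters through the shared estimate of the spread, it was -0.22 with an adjusted p of 0.043. Within VM it was -0.29 with an adjusted p of 0.088. Whether NLRC5 is called lower after knockdown therefore rests on how the tag is treated and on 1 control library.

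**Figure D3:**
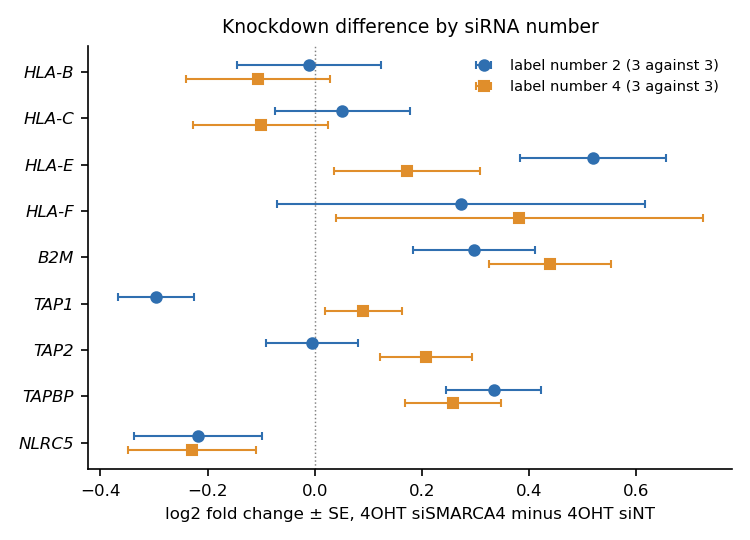
Knockdown difference of each gene as a log2 fold change ± SE, 4OHT siSMARCA4 minus 4OHT siNT, fitted for the libraries with label number 2 (circles) and number 4 (squares), 3 against 3. TAP1 shows the widest gap for its error, at -0.30 and 0.09, and HLA-E stands at 0.52 and 0.17.

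The third comparison set SMARCA4-depleted senescent cells against DMSO siNT cells. It shares libraries with both comparisons above and is given for the levels the cells ended at. TAP1, TAP2, TAPBP and HLA-E were higher and no gene was lower, 4 calls in 9, against 55.1% of all tested genes called, 26.5% higher and 28.6% lower. TAP1 was 1.64-fold higher (log2 fold change 0.71, SE 0.08, adjusted p = 2.3e-07 in edgeR), TAP2 1.78-fold (0.83, SE 0.09, adjusted p = 1.9e-07) and TAPBP 1.58-fold (0.66, SE 0.10, adjusted p = 9.4e-06). All 3 had libraries that did not overlap, as had 36.3% of tested genes. HLA-E was 1.34-fold higher (0.42, SE 0.11, adjusted p = 0.0026), a call lost within number 4 (0.36, adjusted p = 0.19). Both calls of B2M above used the same 4OHT siNT libraries, and its fall there was not called within number 2. In the depleted cells B2M stood at 782 ± 65.1 CPM (n = 6) against 742 ± 106 CPM (n = 5) in DMSO siNT, with a log2 fold change of 0.074 and an interval from -0.14 to 0.29. It was 0.25 within number 2 (adjusted p = 0.0498) and -0.14 within number 4 (adjusted p = 0.49). NLRC5 stood at -0.25 (SE 0.11, adjusted p = 0.056). It was called lower in 8 of 29 alternatives. Within number 2 it stood at -0.46 (adjusted p = 0.00037) and within number 4 at 0.029 (adjusted p = 0.91). The other calls came with upper quartile factors, with the tag as a covariate (-0.27, adjusted p = 0.033), with DESeq2 and without any 1 of the libraries DMSO siNT 4-3VM (-0.35, adjusted p = 0.0020), 4OHT siNT 2-3VM (-0.27, adjusted p = 0.039), 4OHT siSMARCA4 4-2V (-0.31, adjusted p = 0.025) and 4OHT siSMARCA4 4-3V (-0.28, adjusted p = 0.046).

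The counts for other steps of the pathway are read against the 54.4% of all tested genes called in senescence, 27.0% higher and 27.4% lower, and the 24.2% called after knockdown. Of 5 immunoproteasome genes, which encode the interferon-inducible catalytic subunits and the PA28 activator, 2 were lower and none higher in senescence, 40.0%, a smaller share than in all tested genes, with a median log2 fold change of -0.26 against 0.0039 over all tested genes. PSMB9, an inducible catalytic subunit, had 9.81, 7.28, 2.48, 4.11 and 4.21 CPM in DMSO siNT and 1.10 to 1.76 CPM in 4OHT siNT. The 2 highest DMSO siNT libraries are those tagged V. Those tagged VM, like all of 4OHT siNT, had 2.48, 4.11 and 4.21 CPM, and against them the fall is smaller. PSMB9 was not fitted within VM. Over all libraries the groups did not overlap (log2 fold change -1.78, SE 0.27, adjusted p = 1.9e-05 in edgeR). PSMB9 is the neighbour of TAP1 and is read from the other strand, and in the RefSeq windows their start sites lie 488 bases apart. Facing away from each other across that stretch, TAP1 rose 1.75-fold and PSMB9 fell to 0.292 of its DMSO level, both over all libraries. The annotated spans of the genes overlap, and per the study's methods the counting used strand. PSME1, a PA28 subunit, fell by 0.47 on the log2 scale (SE 0.12, adjusted p = 0.0023). After knockdown none of the 5 was called. PSMB9 there had a log2 fold change of -0.0035, with a wide interval from -0.56 to 0.55.

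Among 4 constitutive proteasome genes, 3 rose in senescence, against 27.0% of all tested genes called higher, with a median log2 fold change of 0.29. PSMB7, the constitutive trypsin-like subunit, rose by 0.42 (SE 0.11, adjusted p = 0.0031 in edgeR) and by a further 0.29 after knockdown (SE 0.10, adjusted p = 0.048). In the joint fit by number, that second difference was 0.46 with number 2 (adjusted p = 0.014) and 0.13 with number 4 (adjusted p = 0.51). PSME3, a proteasome activator gene, was not called after knockdown over all libraries. In the joint fit its knockdown difference was called lower with number 2 (-0.24, adjusted p = 0.024) and was at 0.031 with number 4. Of 6 folding and trimming genes of the endoplasmic reticulum, 2 fell and none rose in senescence, against 27.4% of all tested genes called lower. ERAP1, which trims the N-terminus of peptides to fit the class I groove, fell by 0.81 (SE 0.17, adjusted p = 0.00050), whereas ERAP2 was at 0.083 (SE 0.12). TAPBPL, a tapasin-related peptide editor, was lower after knockdown (log2 fold change -0.45, SE 0.12, adjusted p = 0.013), while TAPBP itself was at 0.29. For TAPBPL the difference was -0.51 with number 2 (adjusted p = 0.046) and -0.38 with number 4 (adjusted p = 0.13). The gap between the numbers was not called for PSMB7, PSME3 or TAPBPL (adjusted p = 0.37, 0.19 and 0.84 in edgeR).

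Of the 8 RFX, CREB/ATF and NF-Y genes whose products work with NLRC5, 1 rose, 3 fell and 4 did not pass the test in senescence, 4 calls in 8 against 54.4% of all tested genes. NFYA rose from 31.9 ± 3.86 to 62.0 ± 2.26 CPM and NFYB, its partner in the CCAAT-binding complex, fell from 18.2 ± 0.608 to 9.88 ± 1.64 CPM, with log2 fold changes of 0.96 (SE 0.08, adjusted p = 3.7e-09 in edgeR) and -0.88 (SE 0.15, adjusted p = 6.5e-05). None of the 8 was called after knockdown over all libraries, against 24.2% of all tested genes. In the joint fit by number ATF1, a CREB-family factor, was called higher with number 4 (0.43, adjusted p = 0.019) and was at 0.18 with number 2 (adjusted p = 0.29). The gap between the numbers was not called for it (adjusted p = 0.50 in edgeR).

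Of 14 interferon receptor and signalling genes, 8 were higher and 1 lower in senescence, 64.3% called against 54.4% of all tested genes. IRF1, an interferon-response transcription factor, rose 2.12-fold (log2 fold change 1.09, SE 0.09, adjusted p = 1.4e-08 in edgeR), and SOCS1, an inhibitor of the pathway, fell to 0.274 of its DMSO level. After knockdown none of the 14 was called higher over all libraries, and TYK2, a kinase of the interferon receptors, was lower (log2 fold change -0.29, SE 0.09, adjusted p = 0.026). With number 2 TYK2 was at -0.16 (adjusted p = 0.33) and with number 4 at -0.41 (adjusted p = 0.021), and the gap between the numbers was not called (adjusted p = 0.48 in edgeR). In the same joint fit, some genes of this list were called higher with number 4 and not with number 2. They were the receptor genes IFNGR1 (0.53, adjusted p = 0.0036), IFNGR2 (0.40, adjusted p = 0.022) and IFNAR1 (0.29, adjusted p = 0.044) and the kinase gene JAK2 (0.43, adjusted p = 0.0089). With number 2 they lay between -0.073 and 0.0078, and the difference between the numbers was not called for any of them (adjusted p from 0.057 to 0.31). The share of all tested genes called per number in that fit is not given, so these calls are not set against genes at large. Of 6 interferon genes only IFNE passed the filter, at 0.828 ± 0.369 CPM in DMSO siNT and 4.25 ± 0.840 CPM in 4OHT siNT, and IFNB1 reached no more than 0.0387 CPM in any library. Of 5 NF-kB subunit genes, 4 rose in senescence and 3 after knockdown, against 27.0% and 10.4% of all tested genes called higher, with RELB up 3.11-fold and then 1.43-fold, and NFKB2 up 2.79-fold and then 1.27-fold. None of the 3 knockdown calls was made for number 4 in the joint fit, where the log2 fold changes were 0.11 for NFKB2 (adjusted p = 0.65), 0.31 for RELB (adjusted p = 0.27) and 0.59 for REL (adjusted p = 0.075). With number 2 they were 0.58 (adjusted p = 0.011), 0.72 (adjusted p = 0.013) and 0.71 (adjusted p = 0.032). The gap between the numbers was not called for NFKB2, RELB or REL (adjusted p = 0.28, 0.48 and 0.88 in edgeR).

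**Figure D4:**
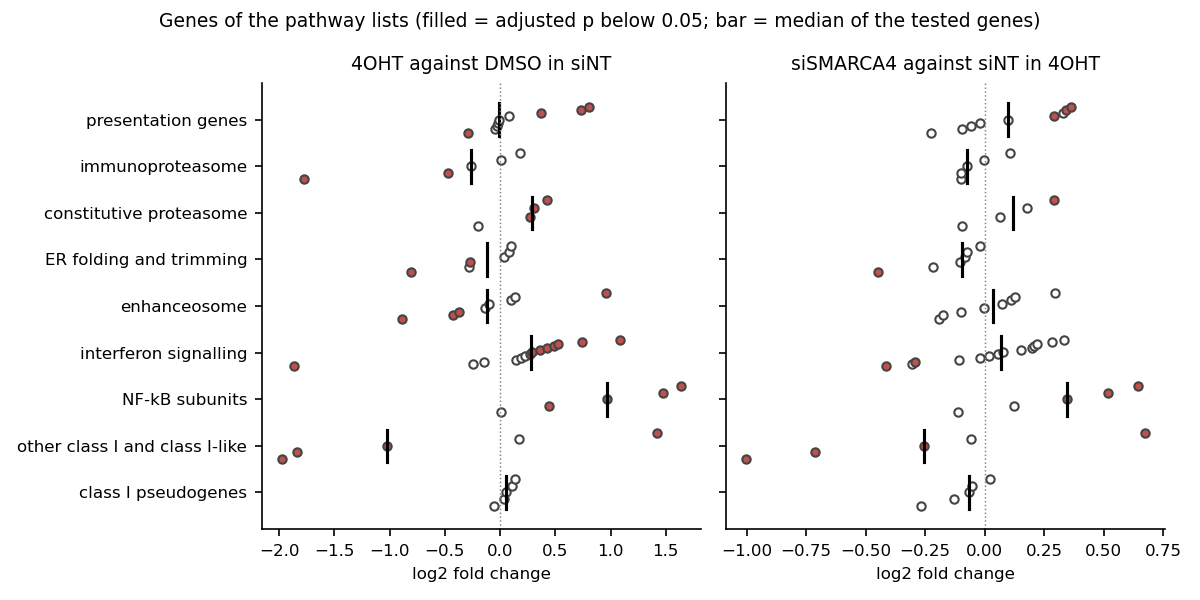
Log2 fold change of every tested gene in 9 lists of the class I pathway, for 4OHT against DMSO in siNT and for siSMARCA4 against siNT in 4OHT; filled points have an edgeR adjusted p below 0.05 and vertical bars are list medians. In senescence the immunoproteasome median lies at -0.26 and the NF-kB median at 0.97.

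Of 5 tested genes for other class I and class I-like molecules, 1 rose and 3 fell both in senescence and after knockdown, against 54.4% and 24.2% of all tested genes called, but the gene that rose differed. PROCR, the endothelial protein C receptor, rose by 1.42 on the log2 scale in senescence (SE 0.09) and fell by 0.25 after knockdown (SE 0.09, adjusted p = 0.042), a call made with neither number in the joint fit (adjusted p = 0.070 and 0.24). HFE, MR1 and FCGRT, which also pair with B2M and serve iron control, presentation of vitamin metabolites and recycling of IgG, fell in senescence, by 1.84, 1.97 and 1.02 on the log2 scale (SE 0.11, 0.18 and 0.11). After knockdown HFE rose by 0.67 (SE 0.10, adjusted p = 1.8e-04 in edgeR), MR1 fell by 1.00 (SE 0.18, adjusted p = 8.2e-04) and FCGRT fell by 0.71 (SE 0.11, adjusted p = 1.8e-04). HLA-G had 5.71 ± 0.756 CPM in DMSO siNT and 6.44 ± 0.341 CPM in 4OHT siNT and was called in none of the comparisons. Of 10 class I pseudogenes, 5 passed the filter and none was called, and adding all 10 to the heavy chain sum gave 749 ± 77.2, 751 ± 59.1 and 783 ± 91.9 CPM in DMSO siNT, 4OHT siNT and 4OHT siSMARCA4. Of 12 class II genes 6 passed the filter, and 4 of these fell in senescence, against 27.4% of all tested genes. HLA-DRA reached no more than 0.0201 CPM in any library, and HLA-DMA, part of the class II peptide editor, fell from 2.92 ± 0.583 to 0.389 ± 0.0829 CPM.

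Of the 9 genes, 7 lie in the major histocompatibility complex on the short arm of chromosome 6. They are HLA-F (chr6:29722775-29738528), HLA-E (chr6:30489509-30494194), HLA-C (chr6:31268749-31272130), HLA-B (chr6:31353872-31367067), TAP2 (chr6:32821833-32838739), TAP1 (chr6:32845209-32853816) and TAPBP (chr6:33299694-33314284), as GENCODE 44 places them on GRCh38. B2M lies at chr15:44711358-44718851 and NLRC5 at chr16:56989485-57083531. From HLA-F to TAPBP the annotation holds 337 genes, of which 155 were tested. Without the 7 members, 75 of the other 148 tested genes were called in senescence, 34 higher and 41 lower, 50.7% against 54.4% of all tested genes, with a median of -0.0026. After knockdown 5 were called higher and 19 lower, 16.2% in all against 24.2% of all tested genes, with a median of -0.07. Calls in this stretch went in both directions, and TAPBP and HLA-E were 2 of the 7 genes in it that were called higher after knockdown.

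**Figure D5:**
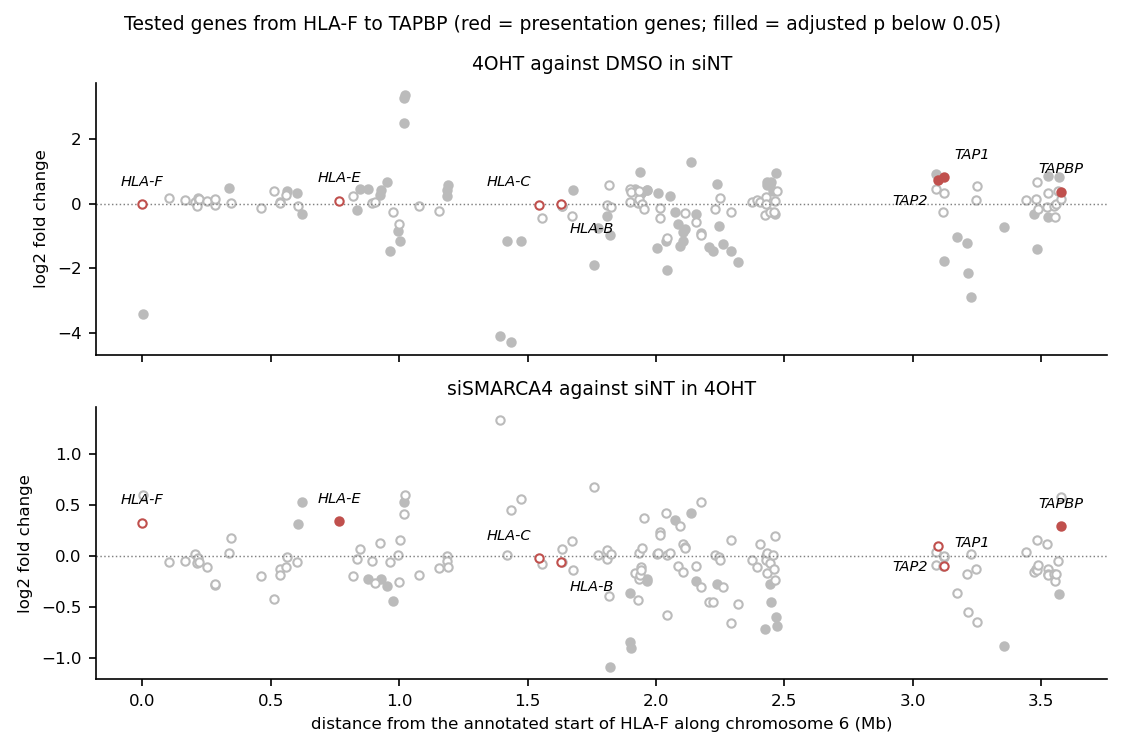
Log2 fold change of the 155 tested genes from HLA-F to TAPBP against distance in megabases from the annotated start of HLA-F; red points are the presentation genes, grey points the others, and filled points have an edgeR adjusted p below 0.05. TAP1 and TAP2 lie close together and both rose in senescence, and grey points lie above and below 0 along the whole stretch.

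Over the 17 libraries, the genes whose log2 CPM followed a member most closely are given as a description, since libraries and treatment are shared by all of them. Only tested genes with a symbol were ranked, so a gene known by its identifier alone may lie closer. For HLA-B these were HLA-C (Pearson's r = 0.86), NAXD (0.78) and the class I pseudogene HLA-L (0.77), and HLA-B, HLA-C and HLA-L can share reads. For TAP1 they were FLRT3, RAB3D and DCDC2C (each 0.98), and for B2M SMIM7, LAPTM4A and the row annotated as MIR1244-1 (each 0.96). For NLRC5 they were the row annotated as MIR6852 (0.96), NUP214 (0.95) and MED12 (0.95). The libraries are poly(A)-selected, so the rows of microRNA genes are not a measure of microRNA. No member was among the 3 closest genes of TAP1, B2M or NLRC5.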

How the data were processed

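Poly(A)-selected, strand-specific, paired-end libraries were analysed. For each library the authors deposited its own table of expected counts, not normalised. Per the labels and methods, reads were trimmed with Cutadapt 4.7 and aligned to GRCh38 with HISAT2 2.2.1, and gene and repeat counts came from TElocal, which shares multi-mapping pairs by maximum likelihood. The methods name Ensembl release 100, whereas the gene identifiers match GENCODE 44, whose symbols, positions and exon lengths were used here.

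Libraries were grouped by their labels. Expected counts of genes and repeat subfamilies, rounded to whole numbers, were filtered (edgeR filterByExpr, minimum count 10, minimum total 15), scaled by TMM and fitted over all 17 libraries with the quasi-likelihood test of edgeR 4.0.16 in R 4.3.3, with p-values adjusted over 19473 genes and a threshold of 0.05. SE is the log2 fold change divided by the square root of F. The procedure was tested on simulated data. The genes and lists were chosen with earlier results of these data known, so list counts are descriptions and no list was tested as a set. Genes named are the 9 members, SMARCA4, genes of the lists and the closest genes of 4 members. For HLA-B, B2M, TAP1 and NLRC5 these are the 3 closest tested genes with a symbol over the libraries (log2 CPM with 0.5 added). Alternatives were DESeq2 1.42.0, other scalings, filters, covariates, subsets of the libraries and each library left out. A result for a gene of the interferon list is not reported here.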

Additional observations from a re-analysis of the deposited data

Results flagged for a closer look

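Values of 3 genes were singled out because 1 library stood apart from the rest of its group by Dixon's criterion, among 33 groups of libraries checked for the 9 genes, SMARCA4 and PSMB9. Chance alone singles out about 1 group in 20. HLA-E in the 4OHT siSMARCA4 library 4-3V was 156 CPM, and its gap to the next library was 0.651 of the group's range. NLRC5 in the DMSO siNT library 4-3VM was 10.9 CPM, with a gap of 0.812 of the range. PSMB9 in the 4OHT siNT library 4-1VM was 1.10 CPM, with a gap of 0.890 of the range, although all 6 libraries of that group were low. What set these libraries apart was not tested.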

How the results depend on the processing

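Of 783 values of the 9 genes under 29 alternatives and 3 comparisons, 726 kept their direction and their side of the threshold, 17 lost a call, 13 gained one and 27 changed sign. TAP1 and TAP2 in senescence held under all 29. For siSMARCA4 against siNT, 4703 genes were called over all libraries, 1198 within label number 4 (725 higher and 473 lower, 3 libraries against 3, and none of the 9 genes) and 3717 to 5352 with 1 library left out. For 4OHT against DMSO the latter range was 9980 to 10917 and for 4OHT siSMARCA4 against DMSO siNT 10036 to 11050. Signs changed only in values that were not called. For the knockdown, HLA-C was 0.0015 with upper quartile factors, 0.016 with no filter, 0.012 with the replicate block, 0.026 with the tag as a covariate and 0.090 within number 2, HLA-B was 0.028 within number 2 and TAP1 0.13 within number 4. In senescence HLA-B was 0.048 and NLRC5 0.10 with the replicate block, NLRC5 was 0.041 with the tag as a covariate, 0.025 within VM and 0.22 within number 4, and HLA-E was -0.084 and HLA-F 0.072 within number 2. Against DMSO siNT, the depleted cells had 0.039 for HLA-C within number 2, and -0.14 for B2M and 0.029 for NLRC5 within number 4. With 1 library left out, HLA-C ranged from -0.079 to 0.033 (knockdown), HLA-B from -0.093 to 0.014 and HLA-F from -0.19 to 0.14 (senescence). Libraries of different groups with the same number, replicate and tag correlated at -0.45 to 0.30 in their deviations from the group means. Pairs with unlike labels ran from -0.53 to 0.61, so this check cannot show whether the libraries were paired. The replicate block called 4444, 9429 and 9151 genes in the 3 comparisons and, of the 9 genes, ended the knockdown call of TAPBP alone (0.23, adjusted p = 0.13). The causes of these changes were not tested. The calls of the knockdown were lost under 7 alternatives for TAPBP, 3 for HLA-E and 1 for B2M. HLA-F had an SE of 0.23 to 0.24 in the 3 comparisons.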
